A study of Mus musculus with 6 samples.

Results

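The genes described here are the 44 symbols of the expression matrix that begin with Psma, Psmb, Psmc, Psmd or Psme followed by a digit. The matrix holds 22551 symbols in all, and the members were chosen by name. Most encode parts of the proteasome or its activators. Psmd5, Psmd9 and Psmd10 encode chaperones of its assembly and Psmc3ip is no subunit, yet they stay in the counts of members below. The study measured RNA in 6 libraries of pro-B colonies, which mouse bone marrow formed within 1 week in methylcellulose for B cells; all were taken at passage 1. The titles name 3 libraries Ts1Rhr, a mouse strain in which part of chromosome 16 is present in an additional copy, and 3 wild-type; the genotype field gives Ts1Rhr for all 6. The matrix names its libraries p1A1, p1A2, p1A3, p1C1, p1C2 and p1C3. The passage and a number can be read from these codes, but the letter is not explained in the sources used here, so none of the 6 was assigned a genotype, no comparison of Ts1Rhr with wild-type was made and the 2 letters were not compared. The values below describe the 6 libraries as 1 set of pro-B colonies of both genotypes, and their spread holds genotype, culture and technical differences together.

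The proteasome is the large protease that degrades ubiquitin-tagged proteins in the cytosol and nucleus. Its barrel-shaped core, the 20S particle, is built from outer rings of alpha subunits (Psma genes), which gate the entrance, and inner rings of beta subunits (Psmb genes), which hold the active sites. A 19S cap recognises and unfolds substrates with ATPases (Psmc genes) and non-ATPase subunits (Psmd genes), and other activators (Psme genes) can take its place. In lymphoid and myeloid cells, and in other cells under interferon, the catalytic subunits Psmb5, Psmb6 and Psmb7 can be replaced in new particles by Psmb8, Psmb9 and Psmb10, which gives the immunoproteasome and changes the peptides offered on MHC class I.

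Every canonical subunit of the 20S core and the 19S cap was expressed, and most were abundant. Of the 44 members, 42 had at least 1 FPKM in each of the 6 libraries, a level that 45.7% of all symbols reached. FPKM counts fragments per kilobase of transcript, scaled to the mapped fragments of the library, which puts different genes on 1 scale. Values still moved with transcript length in some libraries (below), so comparisons between genes may hold a part from length. The 42 had a median level of 70.6 FPKM, from 8.79 FPKM for Psmd9 to 134 FPKM for Psmb4, against 12.1 FPKM over the 10302 symbols that passed the same minimum. Of the 42, 27 lay among the 10% of those symbols with the highest levels. No member lies in the segment with the extra copy, taken as chromosome 16 from 93605853 to 97514816 (Cbr1 to Fam3b, GRCm38). The single member on chromosome 16, Psmd2, lies outside it, at 20651652 to 20663414.

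**Figure D1:**
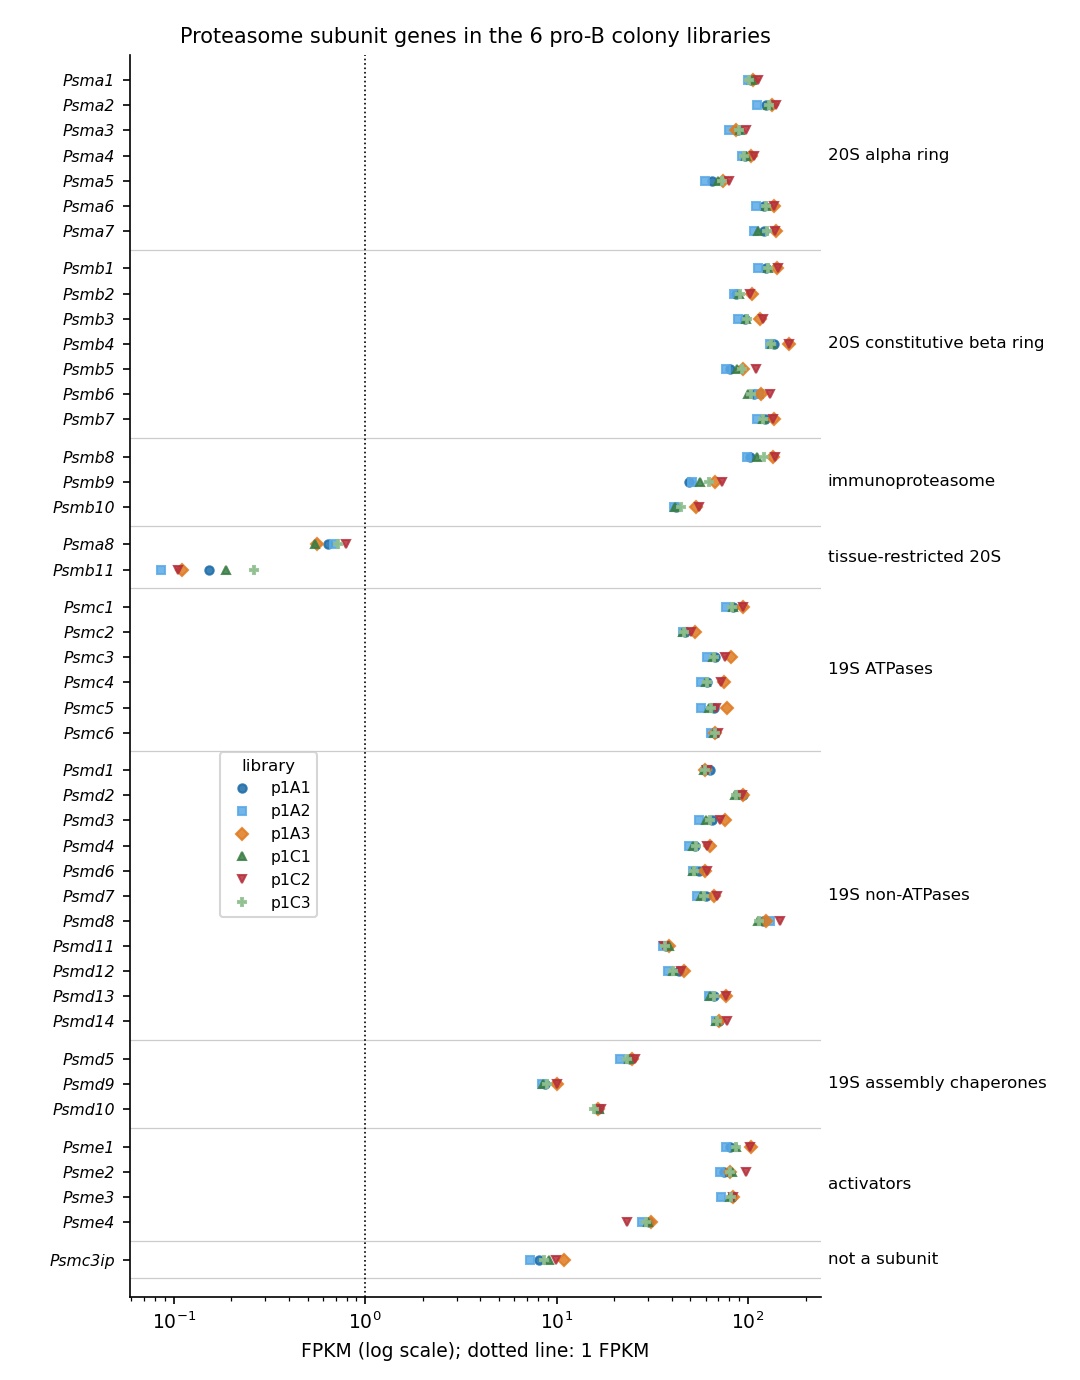
FPKM (log axis) of the 44 members in each of the 6 libraries, grouped by their place in the proteasome; each point is 1 library and the dotted line marks 1 FPKM. Psma8 and Psmb11 are the only members to the left of the line, and the 6 points of most other members lie close together.

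The libraries were not made of B-lineage RNA alone. All 9 B-lineage markers examined were detected, with Cd79a at 276 to 460 FPKM and Vpreb1, a surrogate light chain of the pre-B receptor, at 288 to 498 FPKM. All 7 myeloid markers were detected too, led by Lyz2, the lysozyme of macrophages and granulocytes, at 2457 to 4437 FPKM. The summed myeloid markers ranged from 2691 to 4912 FPKM and the summed B-lineage markers from 1362 to 2072 FPKM. Of the other lists, 2 of 4 mast cell and basophil markers, 2 of 3 dendritic markers and 1 of 5 T and NK markers reached 1 FPKM in every library, with summed levels of 5.98 to 14.6, 11.2 to 26.1 and 1.95 to 6.36 FPKM. No erythroid marker did, and their summed level was 0.27 to 0.64 FPKM. In bulk RNA, fewer cells of a type and less RNA per cell cannot be told apart, and the cells that supplied each proteasome transcript were not identified.

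The alpha ring was expressed at similar levels across its 7 genes. Their medians over the libraries ran from 71.4 FPKM for Psma5 to 128 FPKM for Psma2, a ratio of 1.79, with a median of 104 FPKM. Psma2 had 124, 112, 134, 127, 141 and 128 FPKM in p1A1, p1A2, p1A3, p1C1, p1C2 and p1C3, the order used for all lists of 6 values below. It was the highest of the ring in 5 of the 6 libraries, and the ranges of its neighbours Psma6 and Psma7 (medians of 124 FPKM each) overlapped its own. Psma5 had 64.8, 59.9, 74.3, 69.9, 80.0 and 72.9 FPKM and was the lowest of the ring in all 6 libraries. Psma1, Psma3 and Psma4 lay between them, at medians of 104, 89.0 and 97.0 FPKM.

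The constitutive beta ring stood at about the level of the alpha ring. Its 7 genes had a median of 111 FPKM, from 90.2 FPKM for Psmb5 to 134 FPKM for Psmb4, a ratio of 1.49. The library median of the beta ring was above that of the alpha ring in 5 of 6 libraries, at 0.96 to 1.16 times its level. Psmb4, a non-catalytic subunit, had 136, 130, 163, 133, 165 and 132 FPKM and led the ring in every library. Its values in p1A3 and p1C2 stood apart above the other 4. Psmb1 and Psmb7, at medians of 127 and 121 FPKM, were followed by Psmb6 at 111 FPKM and Psmb3 at 98.3 FPKM. Psmb2 and Psmb5 had overlapping ranges at 84.4 to 105 and 76.6 to 110 FPKM, and Psmb5 was the lowest of the ring in 4 of 6 libraries.

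The 3 immunoproteasome genes were all expressed in these colonies, at unequal levels. Psmb8, which replaces Psmb5, had 102, 99.3, 135, 111, 139 and 122 FPKM. Psmb5, which carries the chymotrypsin-like activity of the constitutive core, had 80.7, 76.6, 94.4, 87.4, 110 and 93.0 FPKM. Psmb8 was therefore above Psmb5 in each of the 6 libraries, by a ratio of 1.26 to 1.43, although the ranges of both genes over libraries overlapped.

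The other replacements stood below the subunits they replace. Psmb9, the counterpart of the caspase-like subunit, had 49.1, 50.7, 67.4, 56.2, 73.1 and 62.6 FPKM. Psmb6 itself had 108, 114, 117, 100, 131 and 104 FPKM. The groups did not overlap, and the ratio of Psmb9 to Psmb6 was 0.45 to 0.60. Psmb10, the counterpart of the trypsin-like subunit, had 42.0, 41.1, 53.7, 41.7, 55.2 and 44.9 FPKM. Psmb7 had 122, 112, 137, 119, 135 and 120 FPKM, and the ratio of Psmb10 to Psmb7 was 0.34 to 0.41, again with no overlap.

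These within-library differences were tested on log2(FPKM + 1) with an exact two-sided sign-flip permutation test over the 6 libraries, whose smallest possible p is 0.03125. The mean log2 ratio of Psmb8 to Psmb5 was 0.38 (range 0.34 to 0.51), that of Psmb9 to Psmb6 was -0.91 (range -1.15 to -0.73) and that of Psmb10 to Psmb7 was -1.41 (range -1.52 to -1.27). Each of the 3 had the same sign in 6 of 6 libraries and the smallest p of the exact test, 0.03125. After Benjamini-Hochberg adjustment over the 5 pairs of genes tested, each had an adjusted p of 0.0521 by this exact test. None of the 3 passed 0.05. At the smallest p the adjusted value depends on how many of the 5 pairs reach it, and not on these 3 ratios alone. FPKM of 2 genes also differ by how well reads from each can be mapped, which was not measured. The GENCODE annotation holds pseudogene models named for Psmb5, Psmb6 and Psmb7, whose reads may be shared with those genes. The longest coding transcripts of Psmb8, Psmb9 and Psmb10 have 1628, 1352 and 1311 bases. Those of Psmb5, Psmb6 and Psmb7 are shorter, at 899, 798 and 1160 bases. The part of transcript length in these ratios was not tested.

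**Figure D2:**
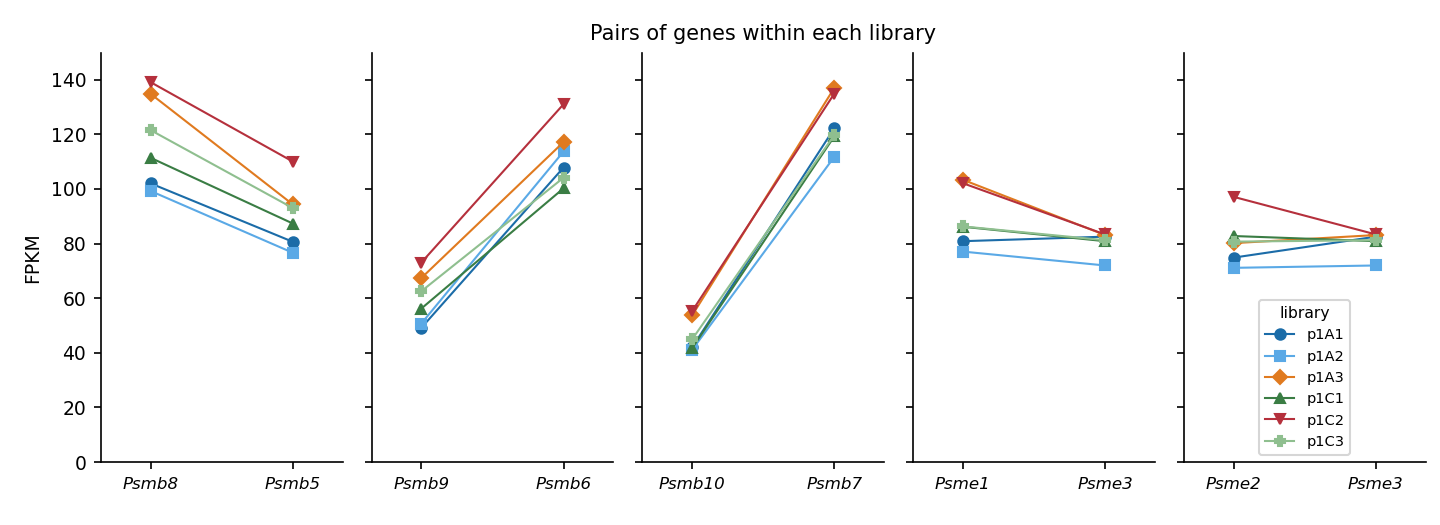
FPKM of each pair of genes compared within libraries, with a line joining the 2 values of each library. All 6 lines fall to the right for Psmb8 and Psmb5 and rise for Psmb9 and Psmb6 and for Psmb10 and Psmb7; the lines of Psme1 and Psme2 with Psme3 go both ways.

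Taken as a share of the FPKM of the 6 catalytic genes, Psmb8, Psmb9 and Psmb10 together made up 38.3%, 38.7%, 42.3%, 40.5%, 41.6% and 42.0% in the 6 libraries, a median of 41.1%. Their order within the set was the same everywhere: Psmb8 was the highest and Psmb10 the lowest in 6 of 6 libraries. The share was lowest in p1A1 and p1A2, where the summed B-lineage markers were 1608 and 1362 FPKM, the lowest of the 6, against 1937 to 2072 FPKM in the others. The summed myeloid markers were 3789 and 4912 FPKM there. They were 3918 and 3694 FPKM in p1C2 and p1C3, where the share was 41.6% and 42.0%. In p1A3 and p1C1 they were 2714 and 2691 FPKM, with shares of 42.3% and 40.5%. Lyz2 made up most of these sums. Csf1r, Itgam and Cd68 were highest in p1A2 and next highest in p1A1, while Lyz2, Mpo, Elane and Ctsg were higher in p1C2 than in p1A1. The part of cell makeup in the share was not tested.

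The 20S genes of specialised tissues were near 0. Psmb11, which encodes the catalytic subunit of the thymoproteasome of cortical thymic epithelium, had 0.15, 0.09, 0.11, 0.19, 0.11 and 0.26 FPKM. Foxn1 and Krt8, other genes of that epithelium, were listed at 0 in all 6 libraries. Psma8, the alpha subunit of the testis-specific core, had 0.64, 0.68, 0.56, 0.55, 0.79 and 0.72 FPKM. The germ-line genes Ddx4 and Sycp3 reached at most 0.08 and 0.19 FPKM. Psmb11 lies beside Psmb5 on chromosome 14, at 54625310 to 54629556 against 54614120 to 54617995 for Psmb5 (RefSeq, GRCm38.p6), yet it reached at most 0.26 FPKM where Psmb5 had at least 76.6 FPKM.

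The promoters of the catalytic pairs and of Psme1 are shown because these genes carry the contrast between constitutive and inducible forms. RefSeq windows (GRCm38.p6) of 300 bases, from 250 before to 50 after the annotated start, were found for 37 of the 44 members, in 40 windows; the others were Psma8, Psmb1, Psmb2, Psmb7, Psmc3, Psmd3 and Psmd7. Capitals mark a match, on either strand, to TGACNNNGC (the element type read by Nfe2l1, a transcription factor of proteasome genes), to CCAAT (the NF-Y box) or to the core of the interferon-stimulated response element. The patterns were searched separately and no match shown overlaps another.
Psmb8, chr17:34197945-34198244, plus strand: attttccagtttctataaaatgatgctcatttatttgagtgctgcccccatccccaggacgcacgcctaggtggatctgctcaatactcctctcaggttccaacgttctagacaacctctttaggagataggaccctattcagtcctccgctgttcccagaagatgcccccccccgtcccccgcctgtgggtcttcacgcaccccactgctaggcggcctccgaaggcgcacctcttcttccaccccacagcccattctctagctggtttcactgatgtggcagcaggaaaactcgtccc
Psmb5, chr14:54617946-54618245, minus strand: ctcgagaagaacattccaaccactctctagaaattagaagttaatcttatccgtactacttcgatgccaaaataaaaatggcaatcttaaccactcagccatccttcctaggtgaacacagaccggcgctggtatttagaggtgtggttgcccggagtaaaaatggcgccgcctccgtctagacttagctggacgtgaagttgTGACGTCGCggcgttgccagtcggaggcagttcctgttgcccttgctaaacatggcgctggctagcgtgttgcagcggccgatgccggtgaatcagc
Psmb9, chr17:34187281-34187580, minus strand: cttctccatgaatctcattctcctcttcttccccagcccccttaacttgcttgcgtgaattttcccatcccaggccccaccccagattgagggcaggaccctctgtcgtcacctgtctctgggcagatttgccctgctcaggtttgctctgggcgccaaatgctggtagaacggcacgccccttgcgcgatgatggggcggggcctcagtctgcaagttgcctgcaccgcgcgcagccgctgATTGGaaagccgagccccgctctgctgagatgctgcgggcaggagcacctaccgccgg
Psmb6, chr11:70525107-70525406, plus strand: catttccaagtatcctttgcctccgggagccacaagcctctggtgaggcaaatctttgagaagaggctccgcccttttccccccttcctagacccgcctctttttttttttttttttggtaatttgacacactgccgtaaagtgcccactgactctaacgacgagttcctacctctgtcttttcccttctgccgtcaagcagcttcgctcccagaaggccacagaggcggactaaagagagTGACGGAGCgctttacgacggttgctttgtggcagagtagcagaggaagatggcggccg
Psme1, chr14:55578244-55578543, plus strand: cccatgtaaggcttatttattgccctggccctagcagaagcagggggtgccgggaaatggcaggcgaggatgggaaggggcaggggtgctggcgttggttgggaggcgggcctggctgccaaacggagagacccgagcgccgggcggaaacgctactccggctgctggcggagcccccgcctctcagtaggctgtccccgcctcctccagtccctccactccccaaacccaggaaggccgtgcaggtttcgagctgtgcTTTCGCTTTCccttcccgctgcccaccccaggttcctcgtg

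The match in Psmb5 begins 47 bases before the start and that in Psmb6 9 bases before it, both to TGACNNNGC on the gene's strand. For Psmb6 this is the start on which its window is set. The RefSeq gene record begins further upstream, at 70525324, and by that start the match lies inside the gene. Psmb9 has CCAAT on the opposite strand, beginning 8 bases before the start, and Psme1 has the interferon element on the opposite strand, beginning 9 bases after it. The Psmb8 window holds none of the 3 patterns, and neither does that of Psmb10, which is not shown. Over the members, 6 of 40 windows (15%) held TGACNNNGC, those of Psmb5, Psmb6, Psmc6, Psmd9, Psmd12 and Psme4, against 12.4% of all 32851 windows. CCAAT was in 15 member windows (37.5%), against 37.4% of all windows, and the interferon element in 4 member windows (10%), against 3.44%. The shares for the first and second pattern were near those of all windows. The 4 windows with the third were those of Psmb3, Psmd4, Psmd9 and Psme1, of which Psme1 alone belongs to the interferon-inducible genes, and these are matches of letters, not measured binding.

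The 6 ATPases of the 19S cap form the ring that unfolds substrates. As a set they had a lower median than the alpha ring and the constitutive beta ring. The medians of the ATPase genes ran from 46.6 FPKM for Psmc2 to 83.3 FPKM for Psmc1, with a median of 66.0 FPKM. Within libraries the median of the alpha ring was 1.40 to 1.69 times that of the ATPases, and that of the constitutive beta ring 1.54 to 1.90 times, in 6 of 6 libraries each. The part of transcript length in this difference was not tested. Psmc1 had 83.5, 76.6, 93.6, 83.2, 94.5 and 82.7 FPKM and was the highest of the ATPases in every library. It also stood above the alpha-ring gene Psma5 in every library, so single genes of cap and core overlapped. Psmc2 had 46.9, 45.5, 52.7, 46.0, 50.2 and 46.3 FPKM and was the lowest in every library, with no overlap with Psmc1. Psmc5 had 66.7, 56.8, 77.7, 62.6, 68.5 and 64.1 FPKM, and it varied most among the ATPases, with p1A3 standing 1.37 times above p1A2. Psmc6 had 67.2, 64.4, 67.3, 66.3, 69.6 and 67.0 FPKM and varied least, by a ratio of 1.08. Psmc3 and Psmc4 lay at medians of 66.7 and 61.2 FPKM.

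The 11 non-ATPase subunits of the cap spread more widely in level than any other part of the particle with more than 4 genes. Their median was 59.8 FPKM, and the ratio of the highest to the lowest gene was 3.29, against 1.79 in the ATPases. Psmd8, a lid subunit, had 120, 130, 124, 113, 147 and 115 FPKM and led them in every library, at the level of the core genes. Psmd11, another lid subunit, had 37.2, 36.2, 38.7, 38.9, 36.5 and 36.9 FPKM and was the lowest in every library. The next lowest, Psmd12, had a median of 42.1 FPKM.

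Psmd4, a ubiquitin receptor, had 52.7, 48.9, 63.1, 51.7, 61.0 and 53.7 FPKM. Psmd14, the deubiquitinase of the lid, had 70.7, 68.2, 70.6, 67.8, 77.6 and 69.0 FPKM, with p1C2 above the other 5, which lay close together. The base scaffolds Psmd1 and Psmd2 had medians of 59.8 and 92.3 FPKM. Psmd1, with 63.2, 60.0, 59.6, 58.9, 60.8 and 59.4 FPKM, had the smallest ratio of highest to lowest library of all 42 members, 1.07. Psmd3, Psmd6, Psmd7 and Psmd13 had medians of 64.1, 53.8, 59.7 and 66.6 FPKM.

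Psmd5, Psmd9 and Psmd10 carry subunit names but encode chaperones that assemble the cap and leave the finished particle. They were the lowest of the Psmd genes, at medians of 24.0, 8.79 and 16.6 FPKM. Within libraries the median of the non-ATPase subunits was 3.33 to 4.02 times that of the chaperones. Psmc3ip is taken by the naming rule but is no proteasome subunit: it encodes a partner of the recombinases in meiosis. It had 8.06, 7.30, 10.9, 9.10, 9.96 and 8.62 FPKM, the largest ratio of highest to lowest library among the 42, 1.497.

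The activators showed 3 genes at about the same level and 1 lower. Psme1 and Psme2, which form the interferon-inducible cap PA28 alpha-beta, had 80.9, 77.1, 103, 86.2, 102 and 86.3 FPKM and 74.9, 71.1, 80.2, 82.8, 97.1 and 80.7 FPKM. Psme3, the nuclear PA28 gamma, had 82.5, 72.0, 83.1, 80.9, 83.4 and 81.2 FPKM. Psme1 was above Psme3 in 5 of 6 libraries, by a mean log2 ratio of 0.14 (range -0.03 to 0.31), with an exact sign-flip p of 0.0625 and an adjusted p of 0.0781. For Psme2 over Psme3 the mean log2 ratio was 0.0056 (range -0.14 to 0.22), with Psme2 higher in 2 of 6 libraries and an exact sign-flip p of 0.875, adjusted p 0.875. Without p1C2 that mean was -0.04, so its sign rests on 1 library. Psme2 may share reads with Psme2b, a copy on chromosome 11 in the GENCODE annotation. Psme4, which encodes the large activator PA200, had 30.4, 27.9, 31.0, 29.9, 23.3 and 29.2 FPKM. Its lowest library was p1C2, which was the highest for 25 of the 42 members and for 17.2% of all symbols.

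The members varied little over the libraries. The ratio of the highest to the lowest library had a median of 1.26 over the 42 members, from 1.07 to 1.497, against a median of 1.32 over all 10302 symbols. None of the 42 reached a ratio of 1.5, a threshold passed by 23.8% of all symbols and by 16.5% of the 5870 symbols whose median level lay between those of Psmd9 and Psmb4. A ratio of 2, which none of the 42 reached either, was passed by 6.26% of all symbols. At a ratio of 5 to 4 there were 22 of 42, against 67.4% of all symbols. The 5 largest ratios were those of Psmc3ip, Psmb9 (1.49), Psmb5 (1.44), Psmb8 (1.40) and Psmc5 (1.37), and the 3 smallest those of Psmd1 (1.07), Psmd11 (1.08) and Psmc6 (1.08). Thus 3 of the 6 catalytic genes, but none of the 11 non-ATPase subunits, were among the 5 most variable members. The cut was close: Psme2 (1.366) and the non-ATPase subunit Psmd3 (1.358) came next after Psmc5 (1.367). Both were above the catalytic genes Psmb10 (1.34), Psmb6 (1.31) and Psmb7 (1.23).

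**Figure D3:**
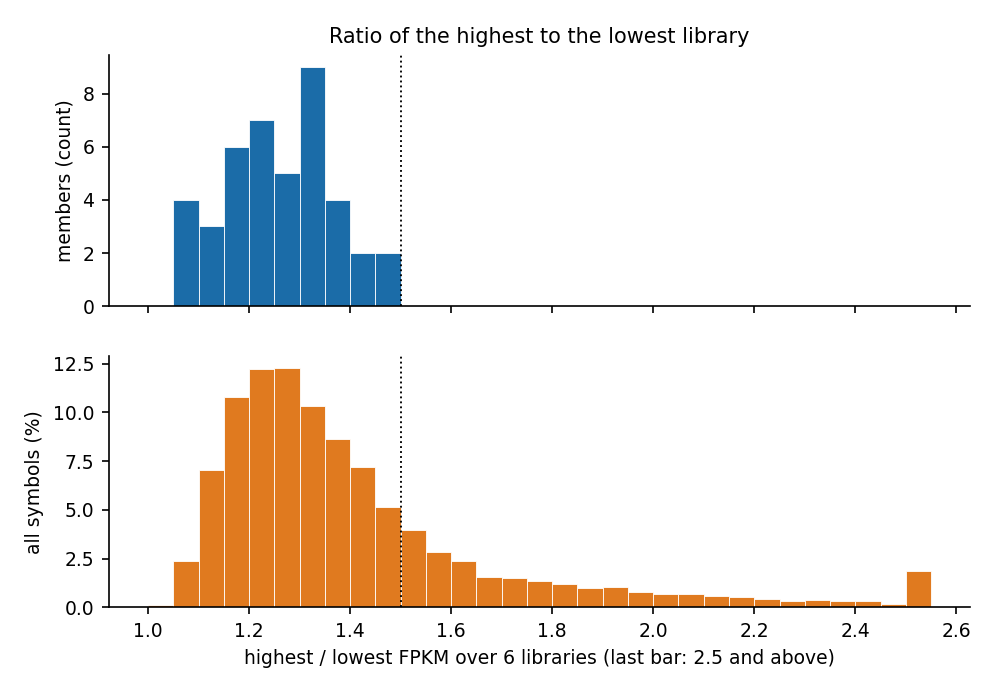
Ratio of the highest to the lowest of the 6 libraries, as counts of the 42 detected members (top) and as a percentage of all 10302 detected symbols (bottom, last bar 2.5 and above); the dotted line marks 1.5. All members lie left of the line, while 23.8% of all symbols lie at or right of it.

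What variation there was ran in the same direction for most members. In p1C2, 40 of the 42 were above their own median over the libraries, and in p1A3, 38 were, against 59.5% and 59.3% of all symbols. In p1A2, 4 were above it, against 37.4% of all symbols. The lowest library was p1A2 for 34 of the 42 members and for 40.1% of all symbols. The median log2 ratio of a member to its own median was 0.17 in p1C2, 0.15 in p1A3 and -0.12 in p1A2, against 0.03, 0.03 and -0.06 for all symbols, and it was -0.01, -0.02 and -0.01 in p1A1, p1C1 and p1C3. After median-ratio scaling, which leaves the median of all symbols near 0 in each library, the members had 0.13 in p1C2, 0.09 in p1A3 and -0.06 in p1A2. For 33 of the 42, p1A3 and p1C2 were the 2 highest libraries, as they were for 25.2% of all symbols and for 31.4% of those in the members' range of levels. The 9 others were Psma3, Psmd1, Psmd2, Psmd8, Psmd10, Psmd11, Psmd14, Psme2 and Psme4. This count was chosen after the values were seen, and no test was made of it. It depended on scaling: 24 members against 16.6% of all symbols after median-ratio scaling, and 16 against 8.03% when all libraries were rescaled to a common total.

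**Figure D4:**
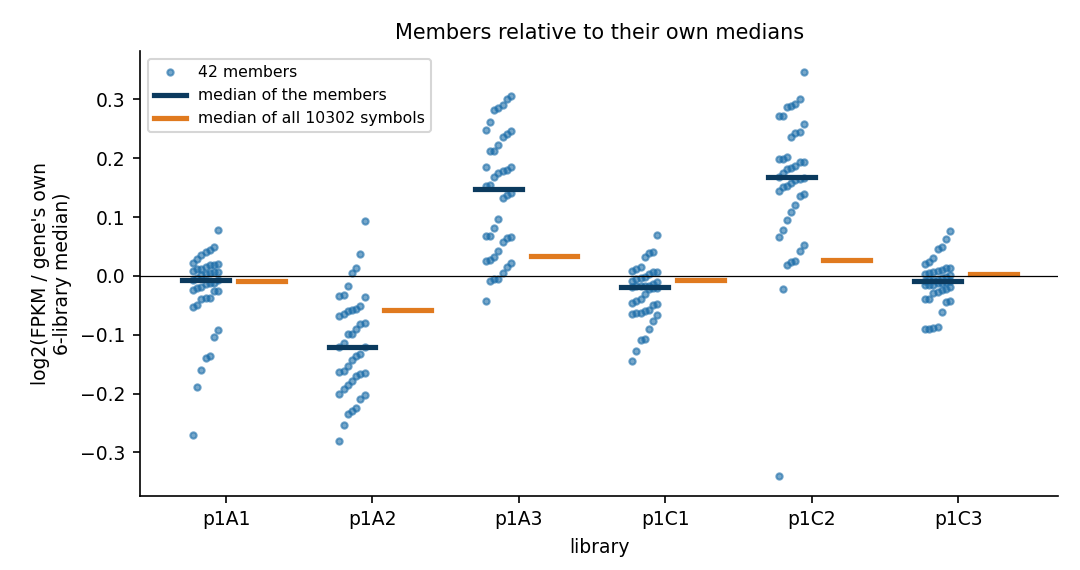
log2 of each detected member's FPKM over its own median across the 6 libraries, by library: blue points are the 42 members, the dark bar their median and the orange bar the median of all 10302 detected symbols. Members lie mostly above 0 in p1A3 and p1C2 and mostly below it in p1A2; the point at the foot of p1C2 is Psme4.

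Transcript length and GC content moved with this pattern over all symbols. The members' longest annotated coding transcripts had a median of 1561 bases, against 3086 over 9113 symbols with a value, and 26 of the 42 members fell in the shortest of 5 equal bins of symbols. All symbols in that bin had a median log2 ratio to their own median of 0.13 in p1A3 and 0.16 in p1C2. The 26 members had 0.18 in each. Symbols of the longest bin had -0.05 and -0.12, and Psme4, the only member in that bin, had 0.07 and -0.34. In the bin next to the shortest the 8 members had 0.17 and 0.19, against 0.07 and 0.08 for all its symbols, and in the middle bin the 6 members had 0.02 and 0.02, against 0.04 and 0.02. GC content also went with it: symbols in the highest of 5 GC bins had 0.14 in p1A3 and 0.10 in p1C2, and those of the lowest -0.04 and -0.02. The members had a median GC content of 49.8%, which lies in the middle bin. In each of the 5 GC bins the members had higher medians than all its symbols in p1A3 and p1C2: the 12 members of the middle bin had 0.17 and 0.16, against 0.03 and 0.02, and the 11 of the bin above it 0.24 and 0.24, against 0.08 and 0.05. The 33 members with p1A3 and p1C2 on top had a median transcript of 1387 bases and the 9 others 2846 bases. By an estimate from low values, p1A3 was the shallowest library, at 0.57 times the depth of p1A1, while p1C2 was at 1.09 times. In p1A2 the summed B-lineage markers were the lowest and the summed myeloid markers the highest of the 6 libraries, at 1362 and 4912 FPKM. The myeloid sum was the next highest in p1C2, where most members were above their own median, at 3918 FPKM. It was the lowest in p1C1, at 2691 FPKM, where the members had -0.02. Lyz2 alone made up most of that sum, at 3637 FPKM in p1C2 and 3445 FPKM in p1A1. Csf1r, Itgam and Cd68 were lower in p1C2 than in p1A1, and Mpo, Elane and Ctsg were higher. The part of transcript length, GC content, depth and cell makeup in the members' values was not tested.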

How the data were processed

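The authors deposited 1 matrix of FPKM values with 23021 rows, 22551 distinct symbols and 6 columns. Cufflinks 2.0.0, TopHat2 2.0.7, Bowtie2 and FastQC are listed in the submitters' processing notes, as are GRCm38 and mm9, with no role for either build. The 6 columns were matched by their passage to the 6 passage 1 libraries as 1 group, not to single samples or genotypes. The labels do not say whether libraries came from separate animals or cultures, so p-values measure only the spread between these libraries, which may be technical.

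Repeated symbols were summed (none among the members). Genes with at least 1 FPKM in every library were called detected. Pairs of genes were compared on log2(FPKM + 1) by an exact sign-flip test, adjusted over 5 pairs. Calculations used Python 3.11.15, numpy 2.4.6 and pandas 2.3.3 and were tested on simulated data. Read totals are not given in the sources used here. Low values recurred at fixed ratios between libraries, whose commonest value put p1A3 at 0.57 times the depth of p1A1 and the other 4 at 0.93 to 1.12 times; 8.21% and 8.51% of low values lay at that peak in p1A3 and p1C2, against 16.2% to 18.8% in the others. No 2 libraries were copies: at most 0.0063% of values above 0 were identical.

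The named genes were the catalytic and activator genes, Psma8, Psmb11, Psmc3ip, Psmd4, Psmd14, the highest and lowest gene of each main subcomplex, and the 5 most and 3 least variable detected members. Members, lists and tests were chosen with earlier results of these data known. One gene of a list is not reported here. Alternatives changed the minimum, the pseudocount, the scaling, repeated symbols and the libraries included.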

Additional observations from a re-analysis of the deposited data

Results flagged for a closer look

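Of 48 quantities examined over the 6 libraries (the 42 detected members, the 5 log2 ratios between genes and the immunoproteasome percentage), 3 had 1 library far from the other 5 by Dixon's criterion, which chance meets in about 1 in 20 groups. Psmd14 had 77.6 FPKM in p1C2, against 67.8 to 70.7 FPKM in the others. Psme3 had 72.0 FPKM in p1A2, against 80.9 to 83.4 FPKM in the others. The log2 ratio of Psmb8 to Psmb5 was 0.51 in p1A3, against 0.34 to 0.38 in the others.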

How the results depend on the processing

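No paired analysis was possible because no column was assigned a genotype, so there were no groups to pair by replicate number. Of 156 recomputed values, 143 kept their direction and their side of the threshold or stayed within the limits of change set for them. Part of this count was fixed in advance. No pair of genes passed 0.05 after adjustment with 6 libraries. With 5 or fewer the smallest p of the exact test is at least 0.0625, so none could pass, and only the direction could change. No member symbol was repeated, so the choice of row for repeated symbols could not change a member's values. The number of detected members was 42 under each alternative except a minimum of 0.1 FPKM, which admits Psma8 and gave 43. Members with a ratio of highest to lowest library of at least 1.5 numbered 0, 1 with no minimum (Psmb11, whose values are all below 1 FPKM), 0 at a minimum of 0.1 FPKM and under both other scalings, 22 at a ratio of 5 to 4 and 0 at a ratio of 2. The members with p1A3 and p1C2 as their highest libraries numbered 33, and 16 when libraries were rescaled to a common total. That rescaling changes the unit, and gave subcomplex medians of 271 (alpha ring), 293 (constitutive beta ring), 158 (immunoproteasome), 1.06 (Psma8 and Psmb11), 171 (ATPases), 160 (non-ATPases), 43.0 (cap chaperones) and 209 (activators). The log2 ratio of Psme2 to Psme3 changed sign without p1C2 (-0.037) and without p1A3 and p1C2 together (-0.033), and ran from -0.037 to 0.035 with 1 library left out. The ratios of Psmb8 to Psmb5, Psmb9 to Psmb6 and Psmb10 to Psmb7 ran from 0.35 to 0.39, from -0.94 to -0.86 and from -1.43 to -1.38 with 1 library left out; with 5 libraries the smallest p is 0.0625. Alternatives leaving out p1A3 and p1C2 together, and all counts of the 2 highest libraries, were chosen after seeing the data. Depth limits Psma8 and Psmb11, whose values lie below 1 FPKM.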

Other observations

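Other genes of proteasome assembly and control were expressed beside the subunits. Adrm1, a ubiquitin receptor of the cap, and Shfm1, its smallest subunit, are left out by the naming rule and had medians of 47.2 and 153 FPKM. All 5 assembly chaperones of the core were detected, from Pomp at a median of 109 FPKM to Psmg3 at 15.7 FPKM. All 7 regulators and associated genes were detected as well, between Psmf1 at 9.05 FPKM and AI314180, the mouse gene of Ecm29, at 33.8 FPKM. The 2 highest libraries were p1A3 and p1C2 for Adrm1 and Shfm1 and for 4 of the 5 core chaperones (all but Psmg1). The same held for 1 of the 7 regulators and associated genes (Psmf1) and for 25.2% of all symbols. Nfe2l1, the transcription factor that raises proteasome genes when the particle is inhibited, had a median of 24.8 FPKM. Its highest library was p1A2 at 29.0 FPKM, which was the highest for 22.4% of all symbols. In p1A2, 34 of 42 members and 40.1% of all symbols were lowest.

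All 7 genes of MHC class I presentation examined were detected. B2m, the light chain of MHC class I, had 1130 to 1360 FPKM. Tap1 and Tap2, the peptide transporter, had medians of 35.2 and 37.5 FPKM, and Irf1, a transcription factor of the interferon response, had a median of 16.5 FPKM. For 1 of the 7, Tap2, p1A3 and p1C2 were the 2 highest libraries, as they were for 25.2% of all symbols.

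Psmg1, an assembly chaperone of the core, lies in the segment with the extra copy in Ts1Rhr, on chromosome 16 at 95979933 to 95990960 (GRCm38). It had 15.1, 13.4, 17.2, 21.3, 26.6 and 24.5 FPKM in p1A1, p1A2, p1A3, p1C1, p1C2 and p1C3, the largest ratio of highest to lowest library (1.99) among the 5 chaperones. These values were not used to assign a genotype to any library.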
